A study of Homo sapiens with 42 samples.

Results

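The 8 genes described here set how a cell senses, takes up and exports sterol: SREBF1, SREBF2, SCAP, INSIG1, INSIG2, STARD4, MYLIP and ABCA1. They were chosen by name as members of SREBP control, lipoprotein uptake, sterol transport and LXR-driven export. Earlier results of these data were known when they were chosen. All 8 were found among the 60606 genes of the table. AC16 is a human cell line labelled as resembling cardiomyocytes. PolyA RNA from total RNA was sequenced in 10 groups of 3 libraries, all treated with doxycycline at 1 ug/ml. The shScramble group carried an inducible scrambled hairpin. The shRPL3 group carried an inducible hairpin against RPL3, a core ribosomal protein. The other 8 groups carried that same RPL3 hairpin and a lentiviral construct for RPL3L, the muscle paralog of RPL3, either wild type (RPL3L-WT) or with 1 of 7 variants: G27D, R161W, T189M, P291L, R343W, D308N or D308V. The labels call the P291L variant inducible by doxycycline too. Cells with a hairpin had been selected with hygromycin, and cells with RPL3L had been sorted for the BV421 signal. The shRPL3 and RPL3L-WT groups are the references for the variants, and shScramble is the reference for the hairpin.

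Sterol control rests on a membrane-bound pair of transcription factors. SREBP1 (gene SREBF1) favours genes of fatty acid synthesis, and SREBP2 (gene SREBF2) favours genes of cholesterol synthesis and uptake. SCAP carries either precursor from the endoplasmic reticulum to the Golgi when sterol is low, where proteases release the active part. INSIG1 and INSIG2 hold SCAP back when sterol is high, and INSIG1 is itself a target of the SREBPs. When sterol is in excess, oxysterols activate the LXR receptors, which raise ABCA1, the pump that passes cholesterol to apolipoprotein A1, and MYLIP, which marks receptors of the LDL family for degradation.

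The values are TPM, which are set per length, so levels of different genes can be put side by side, but they keep no depth, and the depth of these libraries is unknown. Differences are log2 fold changes of TPM + 1 from limma, which understate changes of genes at low TPM, with Benjamini-Hochberg adjusted p over 14426 genes with a mean of at least 1 TPM. The threshold was an adjusted p under 0.05. Nothing in the labels says that replicates came from separate cultures, so p measures only the spread between these libraries. RPL3 was at 1534 to 1611 TPM in shScramble and 499.6 to 569.8 TPM in shRPL3, a difference of -1.55 (adjusted p = 6.22e-07). The libraries labelled R161W, which carry the hairpin by their label, held 1059, 1686 and 1570.0 TPM of RPL3, so R161W went against its label and overlapped shScramble. Those labelled T189M held 779.7, 801.8 and 1246 TPM, above every library of shRPL3 and below every library of shScramble. Library 3 of shRPL3, which should lack the construct, held 121 TPM of RPL3L against at most 0.0353 TPM in libraries 1 and 2. Among the construct groups the mean of RPL3L ran from 2463 TPM in T189M to 5116 TPM in D308N, with 3190 TPM in RPL3L-WT. A first principal component of 334 pseudogenes parted the libraries into 2 kinds with no counterpart in the labels. Of the second kind were T189M 1 and 2, R161W 1, G27D 3 and RPL3L-WT 1 and 2, and the first kind held the remaining 24 libraries. Most differences that involve those groups are therefore given pooled and within kinds, meaning with the kind as a term in the model. A difference given without a setting is pooled. Some differences among shScramble, shRPL3, P291L, D308N, D308V and R343W, all wholly of the first kind, are given both ways too. There the kind term changes the error and not the difference, so added calls are not a correction for kind. Only 1 RPL3L-WT library is of the first kind. The median difference of all genes tested was more than 0.1 from 0 in 9 comparisons. For RPL3L-WT it was -0.19 with shRPL3 as reference and -0.18 with shScramble. With RPL3L-WT as reference it was 0.13 for R343W and D308N, 0.11 for D308V and 0.10 for R161W. With shRPL3 as reference it was -0.14 for T189M and G27D and -0.10 for P291L. Of 14 cardiomyocyte markers only GATA4 had a mean of at least 1 TPM, and their sum was 2.36 to 6.81 TPM. All 9 fibroblast markers did, summing to 5040.0 to 7440.0 TPM. Other lists differed more between groups. The sum of 5 smooth muscle markers, 4 of them at a mean of at least 1 TPM, had group means of 199 TPM in R343W to 693 TPM in T189M, with MYH11 at a mean of 0.113 TPM. The sum of 5 macrophage markers, 2 of them at that level, ran from 67.0 TPM in shRPL3 to 199 TPM in T189M, nearly all of it CD68, with PTPRC at a mean of 0.274 TPM and ITGAM at 0.0409 TPM. The sum of 5 epithelial markers, 3 of them at a mean of at least 1 TPM, ran from 222 TPM in R343W to 438 TPM in P291L. Most of it was KRT18, at a mean of 261 TPM, with EPCAM at 0.176 TPM and CDH1 at 0.756 TPM. The sum of 5 endothelial markers was at most 1.91 TPM in any library. The part of these markers in the results was not tested. In bulk RNA, fewer cells that express a gene and less of its RNA in each cell cannot be told apart.

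The sequences that bear on the members are the promoters of 3 genes whose levels moved together, SREBF2, INSIG1 and STARD4, and that of ABCA1, whose level did not follow them. Each is the 250 bases before the RefSeq start in GRCh38.p14, written 5′ to 3′ on the strand of the gene, with matched motifs in capitals.
SREBF2 promoter, chr22:41832855-41833104, plus strand: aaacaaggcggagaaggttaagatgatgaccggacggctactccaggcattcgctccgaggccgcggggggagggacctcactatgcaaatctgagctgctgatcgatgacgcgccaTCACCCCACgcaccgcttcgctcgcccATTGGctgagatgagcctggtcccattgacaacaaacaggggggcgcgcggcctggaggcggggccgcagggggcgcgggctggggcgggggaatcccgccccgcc
INSIG1 promoter, chr7:155297628-155297877, plus strand: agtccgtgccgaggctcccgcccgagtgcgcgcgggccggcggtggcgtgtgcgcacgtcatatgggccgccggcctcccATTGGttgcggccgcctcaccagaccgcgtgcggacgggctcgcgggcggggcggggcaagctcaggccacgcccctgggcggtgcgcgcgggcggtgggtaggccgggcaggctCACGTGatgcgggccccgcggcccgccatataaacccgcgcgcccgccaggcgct
STARD4 promoter, chr5:111512536-111512785, minus strand: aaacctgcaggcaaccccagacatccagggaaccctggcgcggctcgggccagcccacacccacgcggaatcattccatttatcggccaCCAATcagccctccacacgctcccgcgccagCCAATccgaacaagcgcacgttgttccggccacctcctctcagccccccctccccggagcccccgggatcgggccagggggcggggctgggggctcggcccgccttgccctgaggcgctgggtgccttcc
ABCA1 promoter, chr9:104928156-104928405, minus strand: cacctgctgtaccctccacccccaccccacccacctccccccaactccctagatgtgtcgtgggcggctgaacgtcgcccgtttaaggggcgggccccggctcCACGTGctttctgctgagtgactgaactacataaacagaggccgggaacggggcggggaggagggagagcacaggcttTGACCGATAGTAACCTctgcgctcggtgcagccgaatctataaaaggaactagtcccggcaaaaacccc
The motifs were searched on both strands: the sterol regulatory element core TCACCCCAC, its shorter form, which is ACCCCAC, the CCAAT box, which reads ATTGG on the other strand, the E-box, which is CACGTG, and the LXR repeat, a pair of AGGTCA with 4 bases between them. The shorter form lies inside the core and so overlaps it. SREBF2 held TCACCCCAC from 133 bases before the start, which 0.362% of 35116 promoters hold, and a CCAAT box at 106. INSIG1 held a CCAAT box at 170 and CACGTG at 55, which 6.34% of promoters hold. STARD4 held CCAAT in 2 places, the nearer at 130, a motif of 32.0% of promoters. ABCA1 held CACGTG at 147, and ACCCCAC at 227, left in lower case, which 5.42% of promoters hold. Its second stretch in capitals, 69 bases before the start, is a match on the other strand to the LXR repeat with 2 of 12 fixed letters differing, as 2.03% of promoters have. The exact repeat was in 0.0142% of promoters and in no member. SCAP held CACGTG at 58, and MYLIP held CCAAT at 109 and 68. SREBF1 held none of the 5 motifs in the 1 window searched, and INSIG2 held none in its 2 windows. Any other start of these genes was not searched. A match is a description of letters, not a site shown to be used.

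Both SREBF genes also enclose a microRNA of the miR-33 family, known for lowering ABCA1. They are shown because they share bases 2 to 8, the seed, in capitals.
hsa-miR-33a-5p, inside SREBF2: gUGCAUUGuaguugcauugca
hsa-miR-33b-5p, inside SREBF1: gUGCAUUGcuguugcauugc
Mature microRNA was not measured in these polyA libraries.

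SREBF2 (ENSG00000198911.11, chr22:41833079-41907308 in GRCh38, plus strand) encodes the SREBP that leads in cholesterol metabolism. It was at 116, 102 and 104 TPM in libraries 1 to 3 of shScramble and at 36.9, 39.6 and 44.8 TPM in shRPL3. The difference was -1.39 (SE 0.15, adjusted p = 1.55e-07), with no overlap. In RPL3L-WT it was at 28.99, 32.54 and 41.22 TPM, which overlapped shRPL3, and the difference was -0.24 pooled (adjusted p = 0.208) and 0.06 within kinds (adjusted p = 0.634). RPL3L-WT was below shScramble, by -1.63 pooled (adjusted p = 1.34e-08). The difference was -1.36 without the second-kind libraries, which leaves 1 RPL3L-WT library. D308N held the lowest level, with 17.4, 18.6 and 19.2 TPM, followed by D308V with 23.4, 24.6 and 24.2 TPM and G27D with 29.6, 30.5 and 25.1 TPM. The libraries labelled R161W held 45.7, 63.1 and 71.5 TPM, all above every library of shRPL3 and below every library of shScramble. P291L and R343W lay between 36.2 and 40.6 TPM, within the range of shRPL3 apart from R343W 2. T189M held 36.7 and 37.7 TPM in its second-kind libraries and 57.8 TPM in library 3.

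SREBF1 (ENSG00000072310.16, chr17:17810399-17837002, minus strand) encodes the SREBP that leads in fatty acid synthesis, and one of its isoforms is an LXR target. Gene TPM does not separate its isoforms. It was at 70.7, 56.6 and 51.7 TPM in shScramble and at 31.2, 41.3 and 40.9 TPM in shRPL3, a difference of -0.64 (SE 0.15, adjusted p = 0.00163) with no overlap. RPL3L-WT was lower again, at 25.7, 32.0 and 23.2 TPM, and differed from shRPL3 by -0.47 pooled (adjusted p = 0.0177) and by -0.65 within kinds (adjusted p = 0.0016). The libraries labelled R161W held 73.4, 61.5 and 64.6 TPM, overlapping shScramble, and differed from it by 0.16 pooled (95% interval -0.15 to 0.47, adjusted p = 0.463). Without the second-kind libraries that difference was 0.09. D308V and R343W were at the other end, with 16.3, 12.5 and 12.9 TPM and with 14.6, 11.6 and 15.3 TPM, and these neighbours in the order overlapped. Every library of both was below every library of the other 8 groups. SREBF1 was the only member whose highest group mean was in R161W and whose lowest was in R343W.

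INSIG1 (ENSG00000186480.12, chr7:155297776-155310235, plus strand), the retention protein that SREBPs also induce, had the widest range of the 8. It was at 492, 501 and 497 TPM in shScramble and at 93.9, 98.3 and 98.7 TPM in shRPL3, where 19.5% of the shScramble mean was left. The difference was -2.35 (SE 0.11, adjusted p = 1.23e-13). It was at 55.7, 53.8 and 72.2 TPM in RPL3L-WT, below every shRPL3 library, with a difference of -0.68 pooled (adjusted p = 9.09e-05) and -0.46 within kinds (adjusted p = 5.16e-06). D308N had the lowest values, 39.4, 37.1 and 35.9 TPM, and G27D overlapped it at 44.8, 42.7 and 38.0 TPM. In the libraries labelled R161W it was at 117, 143 and 151 TPM, above every library of the other hairpin groups and at 27.6% of shScramble. The highest and lowest group means differed 13.3-fold, and INSIG1 ranked 12 of 14426 genes by the F statistic for any difference among the 10 groups.

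STARD4 (ENSG00000164211.12, chr5:111496033-111512590, minus strand) encodes a soluble carrier that moves cholesterol between membranes. It was at 62.8, 59.2 and 60.5 TPM in shScramble and at 18.8, 18.1 and 23.1 TPM in shRPL3, a difference of -1.57 (SE 0.12, adjusted p = 4.15e-10). RPL3L-WT, at 18.3, 14.7 and 21.5 TPM, overlapped shRPL3. D308N held 8.02, 6.91 and 7.84 TPM and D308V held 10.8, 9.75 and 11.8 TPM, both below every library of every other group. The libraries labelled R161W held 28.0, 32.4 and 31.2 TPM, between all other hairpin libraries and shScramble. The order of STARD4 among the groups ran close to that of SREBF2: over the 24 libraries of the first kind these genes correlated with r = 0.987 on log2(TPM + 1), which describes groups that share libraries and is given with no p.

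INSIG2 (ENSG00000125629.14, chr2:118088452-118110997, plus strand) is the INSIG that SREBPs do not drive. It was at 20.3, 22.9 and 25.8 TPM in shScramble and at 15.3, 17.7 and 13.3 TPM in shRPL3, a difference of -0.55 with an adjusted p of 0.0703 pooled and 0.00306 within kinds. The other groups had means of 9.255 to 16.72 TPM. Its second-kind libraries were low in every mixed group, at 8.26 and 9.36 TPM in RPL3L-WT 1 and 2 against 14.5 in RPL3L-WT 3, and at 10.1 TPM in R161W 1 against 19.2 and 20.9 in R161W 2 and 3. INSIG2 moved with the library kind, so its within-kinds values are the ones to set beside the pooled values here.

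SCAP (ENSG00000114650.19, chr3:47413694-47477126, minus strand), the escort that both SREBPs need, varied least. Its group means ran from 15.8 TPM in RPL3L-WT to 23.7 TPM in shScramble, 1.50-fold, or 1.30-fold over libraries of the first kind. RPL3L-WT 1 and 2, of the second kind, held 12.91 and 12.95 TPM, and RPL3L-WT 3 held 21.6 TPM, near the 20.1 to 23.0 TPM of shRPL3. The pooled difference from shRPL3 of -0.47 (adjusted p = 0.0317) was -0.15 within kinds (adjusted p = 0.335) and -0.001 without the second-kind libraries (adjusted p = 1). The F test among the 10 groups gave an adjusted p of 0.0833 for SCAP pooled and 0.00615 within kinds.

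MYLIP (ENSG00000007944.14, chr6:16129125-16148248, plus strand), the ubiquitin ligase of LDL family receptors, was at low levels. It was at 4.49, 3.26 and 4.29 TPM in shScramble and at 2.84, 3.50 and 3.27 TPM in shRPL3, which overlapped (difference -0.25, adjusted p = 0.061). RPL3L-WT had the lowest values of any group, 1.35, 1.29 and 1.57 TPM. Its difference from shRPL3 was -0.80 pooled (SE 0.10, adjusted p = 7.26e-06) and -0.75 within kinds (adjusted p = 4.94e-05). R161W at 3.34, 3.42 and 3.40 TPM and D308N at 3.06, 2.89 and 2.75 TPM were within or next to the range of shRPL3. D308V and R343W, at 1.62 to 1.96 TPM, stayed close to RPL3L-WT. Their pooled differences from it were 0.15 (95% interval -0.06 to 0.36) and 0.19 (95% interval -0.02 to 0.40). Without the second-kind libraries, which leaves 1 RPL3L-WT library, these differences were 0.05 and 0.09.

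ABCA1 (ENSG00000165029.15, chr9:104781002-104928237, minus strand), the export pump, was at 0.716 TPM over the 30 libraries. This was under the filter, so 7 of the 8 members were tested in the main model, and ABCA1 is given from the model without a filter. It was at 0.959, 1.03 and 0.969 TPM in shScramble and at 1.03, 1.11 and 1.03 TPM in shRPL3, which overlapped (difference 0.05, 95% interval -0.17 to 0.27, adjusted p = 0.999). RPL3L-WT held 0.238, 0.333 and 0.478 TPM, all lower, by -0.61 pooled (adjusted p = 0.000754) and -0.51 within kinds (adjusted p = 0.00513). With no filter 8.07% of genes passed as lower in that comparison pooled and 5.53% within kinds. Against shScramble it was lower by -0.56 and -0.46 (adjusted p = 0.000591 and 0.00534), where 12.0% and 9.97% of genes passed as lower. T189M, at 0.331, 0.338 and 0.374 TPM, lay within the range of RPL3L-WT. D308N at 1.20, 0.962 and 1.13 TPM overlapped shRPL3, and exceeded RPL3L-WT by 0.64 pooled (adjusted p = 0.000335) and 0.54 within kinds (adjusted p = 0.00231), where 7.04% and 5.38% of genes passed as higher. In P291L it was at 0.274, 0.349 and 0.792 TPM, so library 3 stood apart. At these levels a TPM rests on few reads, and its counting error is unknown.

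**Figure D1:**
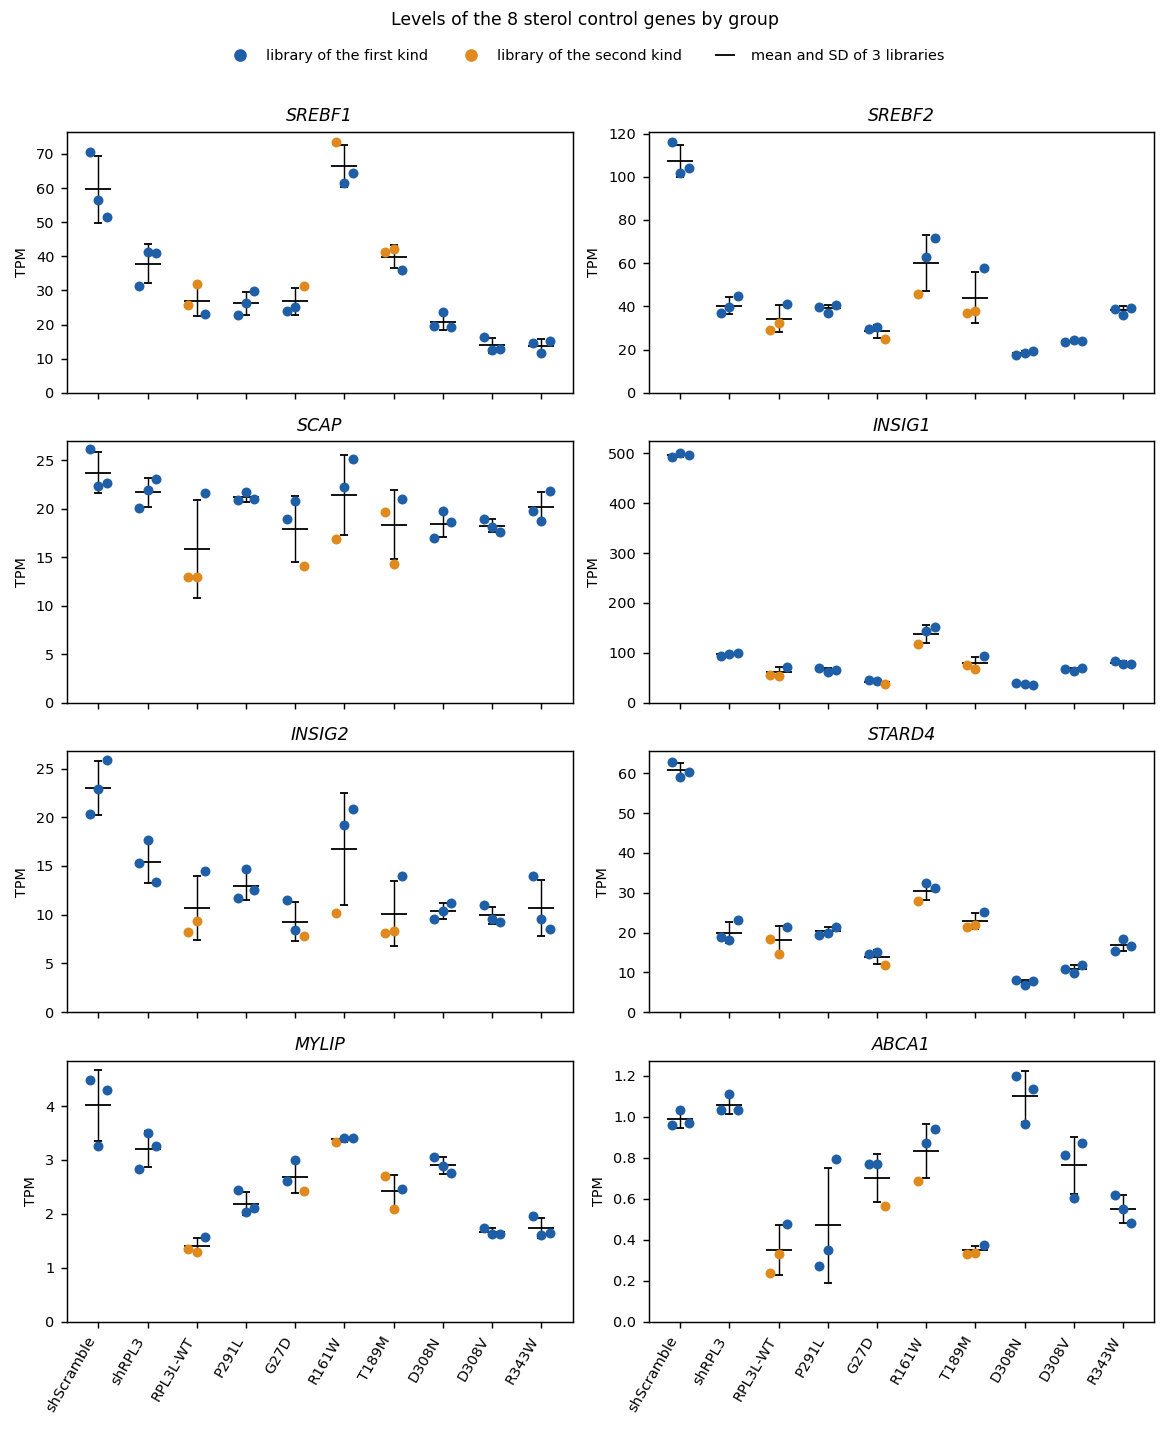
TPM of the 8 genes (vertical axes, from 0) in the 10 groups; points are libraries coloured by kind, black marks are the mean and SD of 3 libraries. INSIG1, SREBF2 and STARD4 are highest in shScramble and lowest in D308N, while SREBF1 is highest in R161W and ABCA1 is about level in shScramble, shRPL3 and D308N.

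In shRPL3 some members were far below shScramble and others overlapped it or nearly so. Against shScramble, 4 of the 7 members tested fell in shRPL3 (INSIG1, STARD4, SREBF2 and SREBF1). Of all genes tested, 18.0% passed as lower in this comparison. Within kinds 6 fell, INSIG2 and MYLIP added, against 24.5% of genes, with MYLIP just past the threshold (adjusted p = 0.05 when rounded). Both of these groups are wholly of the first kind, so the kind term changes the error and not the difference. Without the second-kind libraries of other groups in the fit, MYLIP did not pass (-0.25, adjusted p = 0.057). Leaving out shRPL3 3, the library with RPL3L, left 4 members past the threshold, with INSIG1 at -2.36 and SREBF2 at -1.46. The members' median was -0.64, and that of all genes was -0.01.

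With wild-type RPL3L the members tested were below shScramble. Against shScramble, 7 of 7 members tested were lower in RPL3L-WT pooled and within kinds, where 34.6% and 29.1% of genes passed as lower. INSIG1 was lower by -3.03 pooled (adjusted p = 9.52e-16) and -2.81 within kinds, and INSIG2 by -1.07 (adjusted p = 0.000692) and -0.64. SCAP, at -0.59 pooled and -0.27 within kinds (adjusted p = 0.0435), was at -0.12 without the second-kind libraries (adjusted p = 0.415), and its pooled call was lost with only these groups in the fit (adjusted p = 0.0579). Against shRPL3, 4 of 7 were lower pooled (MYLIP, INSIG1, SREBF1 and SCAP), where 30.2% of genes passed as lower, and 3 within kinds (without SCAP), where 20.1% did. With median-ratio scaling, which takes the median of all genes to -0.01, 2 remained past the threshold. SREBF1 was then at -0.27 (adjusted p = 0.242) and SCAP at -0.27 (adjusted p = 0.132). The count was also 2 without shRPL3 2, without shRPL3 3 or without RPL3L-WT 1, each of which ended both calls. SREBF1 was not past the threshold without RPL3L-WT 3 either (-0.38, adjusted p = 0.062), nor SCAP without RPL3L-WT 2 (-0.35, adjusted p = 0.168) or with no filter (adjusted p = 0.0839).

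The libraries labelled R161W had 4 members above shRPL3: SREBF1, STARD4, SREBF2 and INSIG1. RPL3 was near the level of shScramble in R161W 2 and 3 and at 1059 TPM in R161W 1. The part of RPL3 in the differences of R161W was not tested. Against shRPL3, 4 of 7 members rose pooled and within kinds, where 8.36% and 14.3% of genes passed as higher. SREBF1 rose by 0.81 pooled and 0.72 within kinds (adjusted p = 0.000334 and 0.000135). STARD4 rose by 0.59 and 0.68 (adjusted p = 0.000562 and 2.64e-06), and SREBF2 by 0.54 and 0.69 (adjusted p = 0.00996 and 2.28e-07). INSIG1 rose by 0.49 and 0.59 (adjusted p = 0.0019 and 1.22e-08). Without R161W 3 the pooled SREBF2 call was lost (0.41, adjusted p = 0.0679), as it was without shRPL3 1 (0.48, adjusted p = 0.0502) and with only these groups in the fit (adjusted p = 0.092).

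Against shScramble the same libraries were lower in INSIG1, STARD4 and SREBF2. In the libraries labelled R161W, 3 of 7 members were lower pooled and within kinds, where 16.3% and 20.4% of genes passed as lower. INSIG1 was lower by -1.86 pooled and -1.75 within kinds (adjusted p = 2.86e-11 and 4.93e-17), STARD4 by -0.98 and -0.89, and SREBF2 by -0.85 and -0.69. MYLIP, SCAP and INSIG2 did not pass, at -0.19, -0.16 and -0.49 pooled. Without the second-kind libraries they were at -0.18, -0.003 and -0.19. Against RPL3L-WT, 5 of 7 rose pooled, where 12.6% of genes passed as higher, and 6 within kinds, where 16.1% did. SREBF1 led with 1.28 pooled and 1.37 within kinds (adjusted p = 3.71e-06 and 4.63e-08), then INSIG1 with 1.17 and 1.06, and MYLIP with 0.87 and 0.84. ABCA1 rose by 0.44 and 0.39 (adjusted p = 0.0169 and 0.0199 with no filter, where 3.42% and 4.97% of genes passed as higher). Its pooled call was lost without RPL3L-WT 1 (0.38, adjusted p = 0.084), RPL3L-WT 2 (0.44, adjusted p = 0.0606), R161W 2 (0.43, adjusted p = 0.063) or R161W 3 (0.40, adjusted p = 0.0775). With only the 6 libraries of those groups in the limma fit, 0 of 7 members passed, with adjusted p of 0.0824 for SREBF1 and INSIG1.

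**Figure D2:**
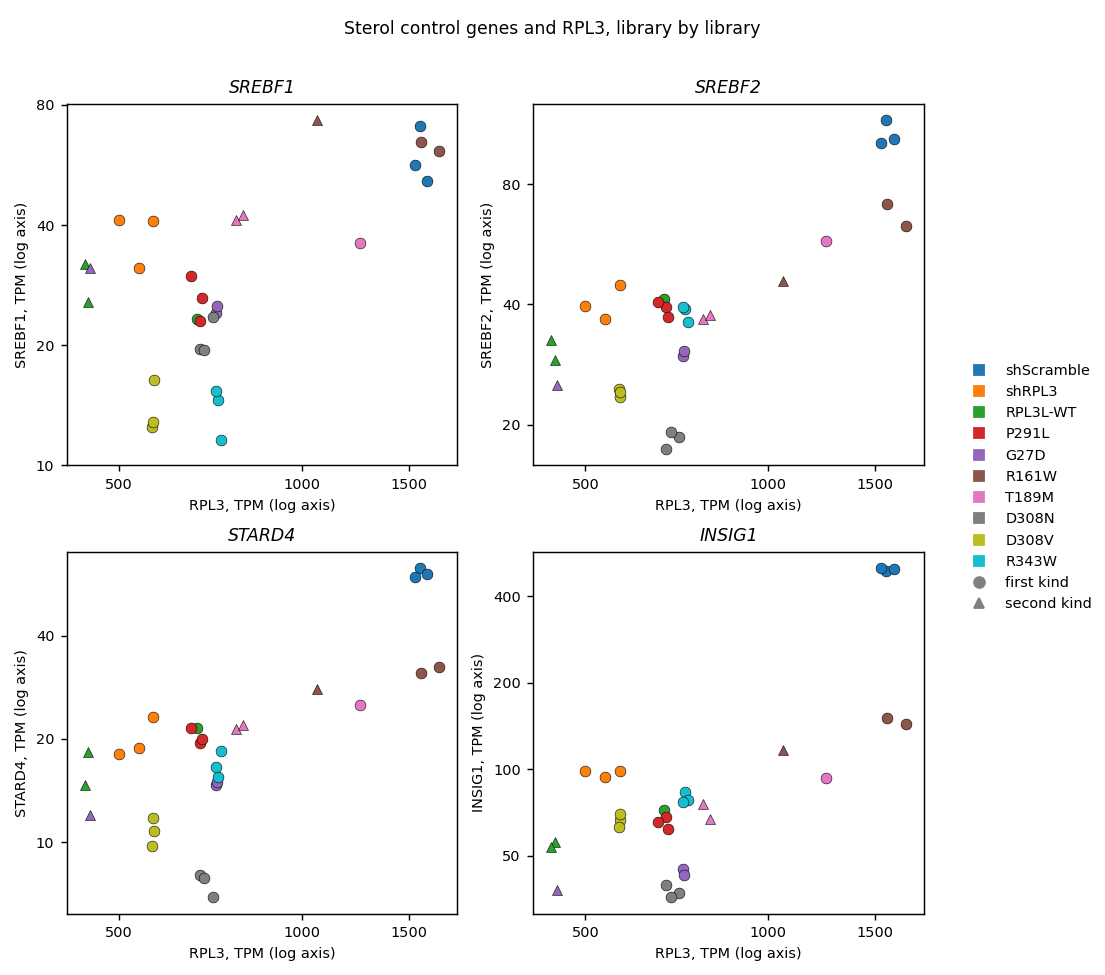
TPM of SREBF1, SREBF2, STARD4 and INSIG1 against TPM of RPL3 in the 30 libraries, both axes logarithmic, coloured by group, with triangles for the second kind. The R161W libraries lie near shScramble in SREBF1, and in RPL3 apart from R161W 1, at 1059 TPM. They lie below shScramble in SREBF2, STARD4 and INSIG1, and D308N has the lowest means of these 3 at 680.1 to 714.4 TPM of RPL3.

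D308N and D308V change the same residue and shared low SREBF2 and STARD4. Against shRPL3, 4 of 7 members fell in D308N and 5 in D308V pooled, where 12.4% and 11.1% of genes passed as lower. Within kinds 5 and 6 fell, with INSIG2 added to each, against 22.2% and 22.4% of genes. In D308N the falls were -1.35 for INSIG1 (adjusted p = 6.1e-09), -1.28 for STARD4 (adjusted p = 3.51e-08), -1.09 for SREBF2 (adjusted p = 1.34e-05) and -0.82 for SREBF1 (adjusted p = 0.00036). In D308V the order was another, with -1.38 for SREBF1 (adjusted p = 6.1e-07), -0.83 for STARD4, -0.72 for SREBF2, -0.65 for MYLIP and -0.55 for INSIG1 (adjusted p = 0.00102). Both comparisons share the shRPL3 libraries and hold libraries of the first kind only, so the kind term changes the error and not the differences. Leaving out any 1 library of the groups compared left 4 and 5 members past the threshold.

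Set directly against D308V, D308N had INSIG1 lower by -0.81 (SE 0.11, adjusted p = 9.68e-05) and MYLIP higher by 0.55 (SE 0.10, adjusted p = 0.00425). STARD4 was lower by -0.45 (adjusted p = 0.0437), a call lost without any 1 of the 6 libraries (-0.39 to -0.52) and with no filter (adjusted p = 0.082). In this comparison 3 of 7 members passed pooled, 1 higher and 2 lower, where 0.776% and 0.866% of genes did. Within kinds 5 passed, 2 higher and 3 lower, where 4.07% and 4.19% of genes did, with SREBF1 higher by 0.56 (adjusted p = 0.00736) and SREBF2 lower by -0.37 (adjusted p = 0.00328). Both groups are of the first kind only, so the kind term changes the error and not the difference. The libraries did not overlap for SREBF1, SREBF2, INSIG1, STARD4 or MYLIP, a separation that 26.9% of genes showed. These groups also differed in RPL3L, at 4951, 5198 and 5198 TPM in D308N and 2984, 2667 and 2911 TPM in D308V. RPL3 was at 680.1, 714.4 and 691.2 TPM in D308N and 570.8, 568.0 and 569.7 TPM in D308V. The part of these levels in the differences was not tested.

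Against RPL3L-WT, D308N had 3 members lower and 1 higher pooled, where 9.48% and 23.7% of genes passed, and 4 lower and 1 higher within kinds, where 12.8% and 17.5% did. STARD4 fell by -1.14 pooled and -1.32 within kinds (adjusted p = 1.73e-07 and 3.2e-10), SREBF2 by -0.85 and -1.15, and INSIG1 by -0.67 and -0.89, while MYLIP rose by 0.70 and 0.64. INSIG2, the one added within kinds (-0.44, adjusted p = 0.045), was at -0.01 pooled. D308V had 3 lower pooled and 4 within kinds, where 9.03% and 12.7% of genes passed. SREBF1 fell by -0.91 and -0.73 (adjusted p = 9.07e-05 and 0.000391), STARD4 by -0.69 and -0.86 and SREBF2 by -0.48 and -0.78 (adjusted p = 0.0191 and 1.97e-07). The pooled SREBF2 call in D308V was lost without RPL3L-WT 3 (-0.34, adjusted p = 0.0869) or D308V 1 (-0.46, adjusted p = 0.056), with no filter (adjusted p = 0.0532) and with only these groups in the fit (adjusted p = 0.0568). ABCA1 in D308V was higher by 0.39 pooled (adjusted p = 0.0242 with no filter, where 6.24% of genes passed as higher) and did not pass within kinds (0.29, adjusted p = 0.139). The pooled ABCA1 call was also lost without RPL3L-WT 1, RPL3L-WT 2, D308V 1 or D308V 3 (0.33 to 0.38).

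In R343W SREBF1 was low while SREBF2 lay near shRPL3. Against shRPL3, SREBF1 fell by -1.39 (SE 0.15, adjusted p = 3.39e-07), while SREBF2 differed by -0.08 (95% interval -0.39 to 0.23, adjusted p = 0.784). MYLIP fell by -0.62 (adjusted p = 0.000111), and ABCA1 by -0.41 (adjusted p = 0.0214 with no filter, where 3.53% of genes passed as lower and 7.03% within kinds). The ABCA1 call was lost without any 1 of the 6 libraries other than R343W 1 (-0.38 to -0.42). R343W and shRPL3 are wholly of the first kind, so the kind term changes the error and not their difference. Of the 7 members tested, 2 fell pooled, where 12.4% of genes passed as lower, and 5 within kinds, where 22.8% did, with INSIG1 (-0.28, adjusted p = 2e-04), INSIG2 (-0.51, adjusted p = 0.00831) and STARD4 (-0.23, adjusted p = 0.0415) added. Against RPL3L-WT, SREBF1 fell by -0.91 pooled and -0.74 within kinds (adjusted p = 7.01e-05 and 0.000318), the 1 member of 7 to pass as lower pooled, where 9.19% of genes did. INSIG1 was the 1 member higher, by 0.40 and 0.18 (adjusted p = 0.00702 and 0.0242), where 24.5% of genes passed pooled. That call was lost without RPL3L-WT 2 (0.32, adjusted p = 0.0547), without the second-kind libraries (0.14, adjusted p = 0.174) and with only these groups in the fit (adjusted p = 0.0689). Within kinds STARD4 was lower too (-0.27, adjusted p = 0.0419), so that 1 member was higher and 2 were lower, where 18.8% and 12.6% of genes passed.

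G27D, P291L and T189M differed from RPL3L-WT in fewer genes. G27D had INSIG1 lower than RPL3L-WT by -0.51 pooled (adjusted p = 0.00839) and -0.62 within kinds (adjusted p = 3.82e-08), and MYLIP higher by 0.61 and 0.58 (adjusted p = 0.000934 and 0.000683). Of all genes, 1.77% passed as lower and 1.55% as higher in this comparison pooled. Within kinds SREBF2 (-0.40, adjusted p = 0.00122) and STARD4 (-0.44, adjusted p = 0.00209) were lower too, where 6.02% of genes were and 4.31% were higher. Against shRPL3, 5 of 7 members fell in G27D pooled and within kinds, where 15.0% and 20.5% of genes passed as lower. INSIG1 fell by -1.20 and -1.09, STARD4 by -0.50 and -0.41. The pooled calls of SREBF1, SREBF2 and INSIG2 there were lost under median-ratio scaling and with no filter, and the pooled count was 2 without shRPL3 2 or shRPL3 3 and 3 without G27D 2 or G27D 3. SREBF1 was not past the threshold without G27D 1 either (-0.41, adjusted p = 0.0983), nor INSIG2 without shRPL3 1 (-0.69, adjusted p = 0.091).

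P291L had 1 of 7 members higher than RPL3L-WT pooled, MYLIP by 0.41 (adjusted p = 0.0312), where 1.66% of genes passed as higher. Within kinds 0 passed, where 1.98% of genes did in either direction (MYLIP 0.35, adjusted p = 0.129), and the pooled call was lost with no filter (adjusted p = 0.0519) and without any 1 of the 6 libraries other than RPL3L-WT 3. Against shRPL3, INSIG1 (-0.56, adjusted p = 0.000661), SREBF1 (-0.50, adjusted p = 0.0193) and MYLIP (-0.40, adjusted p = 0.00776) fell, as did 15.0% of genes pooled and 27.3% within kinds, where the same 3 members passed. The SREBF1 call was lost without shRPL3 2 (-0.44, adjusted p = 0.0906), shRPL3 3 (-0.44, adjusted p = 0.0798), P291L 1 (-0.41, adjusted p = 0.101) or P291L 2 (-0.51, adjusted p = 0.0532), under median-ratio scaling (-0.40, adjusted p = 0.12) and with no filter (adjusted p = 0.0545). ABCA1 fell by -0.50 (adjusted p = 0.00518 with no filter, where 3.97% of genes passed as lower pooled and 8.48% within kinds).

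T189M has the same mix of kinds as RPL3L-WT, so its differences from RPL3L-WT do not move with the kind term. RPL3 was at 779.7, 801.8 and 1246 TPM in T189M, above the 445.2, 439.3 and 673.5 TPM of RPL3L-WT and above every shRPL3 library. The part of RPL3 in the differences of T189M was not tested. MYLIP rose by 0.51 (adjusted p = 0.0102), the 1 member past the threshold pooled, where 1.39% of genes passed as higher. The call was lost without RPL3L-WT 2 (0.47, adjusted p = 0.0583) or T189M 1 (0.45, adjusted p = 0.0513). Within kinds 5 members rose, where 7.51% of genes did, with SREBF1 at 0.56 (adjusted p = 0.00633), INSIG1 at 0.37 (adjusted p = 9.26e-05), SREBF2 at 0.34 and STARD4 at 0.33. Without the second-kind libraries, which leaves 1 library in each group, 0 passed. Against shRPL3, pooled, INSIG1 (-0.31, adjusted p = 0.0297) and MYLIP (-0.30, adjusted p = 0.0276) fell, as 25.5% of genes did. Within kinds neither did, and SREBF2 (0.40, adjusted p = 0.000929) and STARD4 (0.36, adjusted p = 0.00758) rose instead, where 10.8% of genes rose. Both pooled calls were also lost with no filter (adjusted p = 0.0785 and 0.0596), under median-ratio scaling (-0.17 and -0.19, adjusted p = 0.0767 and 0.124) and without the second-kind libraries (-0.06 and -0.28, adjusted p = 0.603 and 0.209). The pooled count was 0 without shRPL3 2, shRPL3 3 or T189M 2 and 1 without T189M 1. ABCA1 in T189M was lower than in shRPL3 by -0.61 pooled and -0.51 within kinds (adjusted p = 0.000627 and 0.00417 with no filter, where 7.08% and 5.47% of genes passed as lower).

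**Figure D3:**
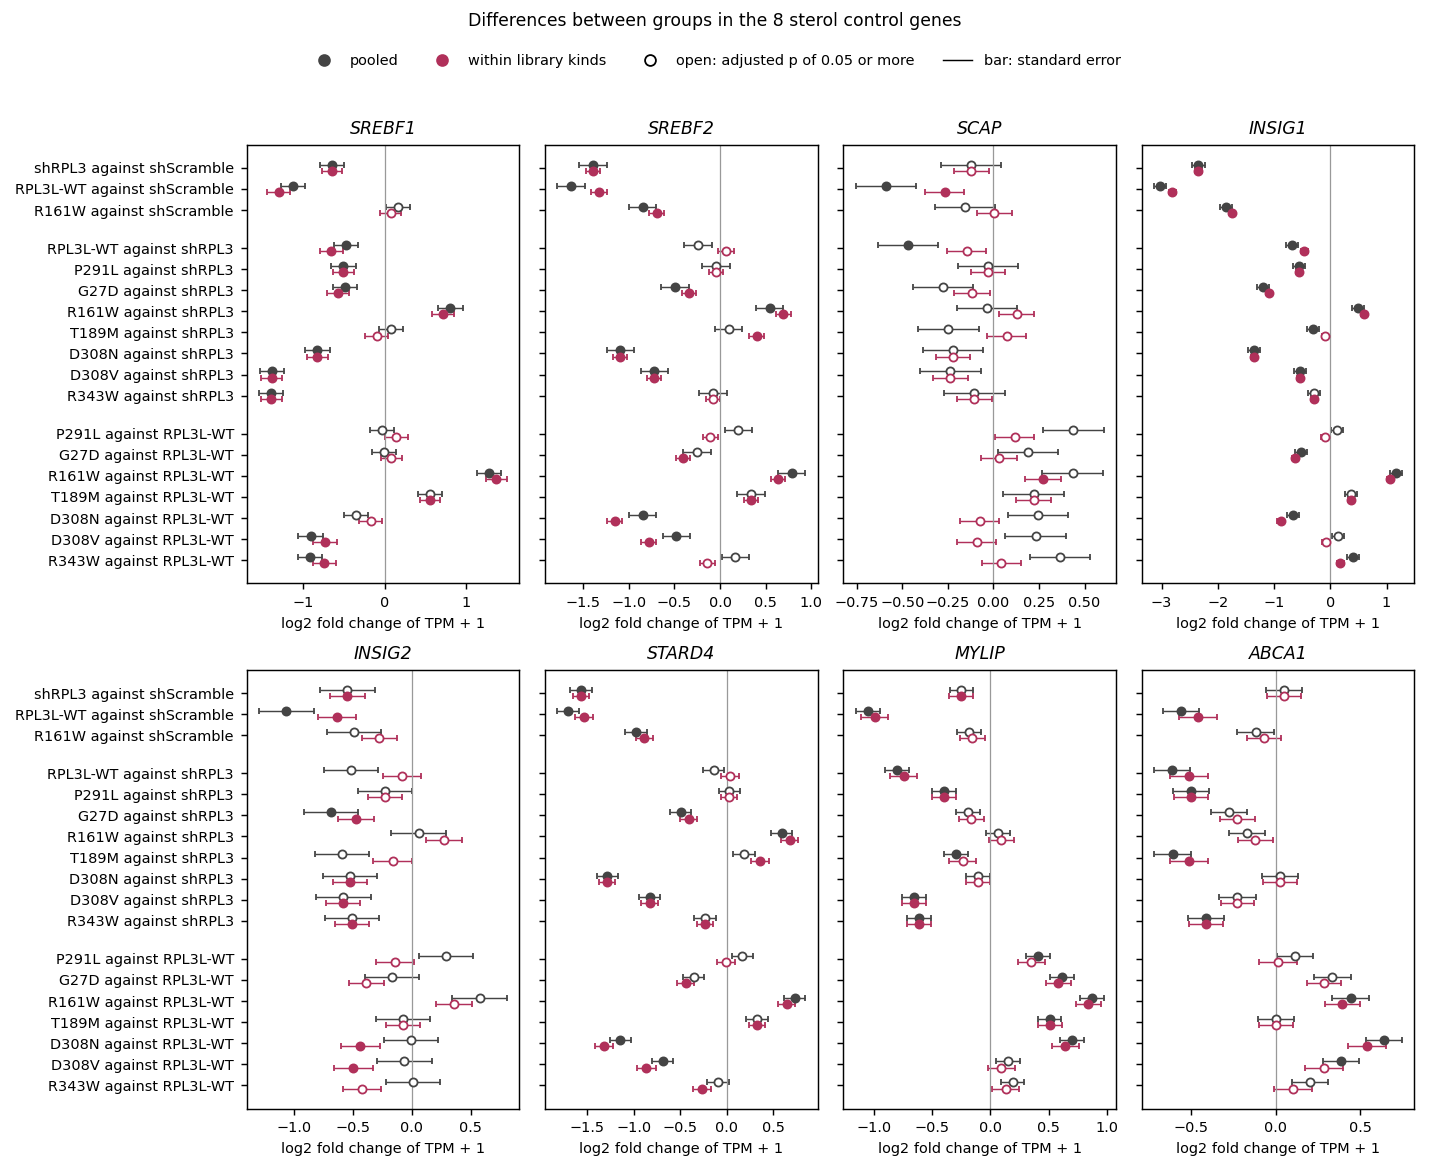
Log2 fold changes of TPM + 1 (horizontal axes) for the 8 genes in 18 comparisons, pooled in grey and within library kinds in red, with standard errors; open points have an adjusted p of 0.05 or more, and ABCA1 is from the model with no filter. INSIG1 spans -3.03 to 1.17, and SCAP stays within -0.59 to 0.44.

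Over all 10 groups, 6 of the 7 members tested differed by limma's F test pooled (all but SCAP) and 7 within kinds, where 73.4% and 78.8% of genes did. Among the 8 groups with a construct, 5 differed pooled and 7 within kinds, where 59.3% and 68.4% of genes did. INSIG2 (adjusted p = 0.105) and SCAP (adjusted p = 0.247) did not pass pooled among the construct groups. The pooled shares of members, 6 of 7 and 5 of 7, are near those backgrounds.

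Ratios within a library do not depend on how the library is scaled. INSIG1 exceeded INSIG2 24.2, 21.9 and 19.2-fold in shScramble, and 3.20 to 11.5-fold in the 27 other libraries. No library of another group reached the shScramble range. The mean was 6.37 ± 0.949 in shRPL3, 8.74 ± 2.40 in R161W and lowest in D308N, at 3.64 ± 0.468 (SD, n = 3). The 11.5 was R161W 1, of the second kind, and R161W 2 and 3 held 7.47 and 7.24. Second-kind libraries were also higher in T189M (9.40 and 8.05 against 6.66) and RPL3L-WT (6.74 and 5.75 against 4.99). In G27D the second-kind library, at 4.89, lay between the others at 3.89 and 5.06. Over libraries of the first kind the mean of R161W was 7.36, below the 7.72 of R343W. This ratio was not tested.

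SREBF2 stood to SREBF1 at 1.82 ± 0.189 in shScramble and 1.08 ± 0.112 in shRPL3, with no overlap. R343W had the highest ratios, 2.68, 3.12 and 2.57, above the 2.02 of the highest other library. D308N had 0.885, 0.790 and 0.988, and D308V 1.43, 1.97 and 1.88, with no overlap between these. The libraries labelled R161W had 0.622, 1.03 and 1.11, where library 1 is of the second kind. In T189M the first-kind library had 1.60 and the second-kind libraries both 0.891, so this ratio also moved with the kind, and it was not tested.

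**Figure D4:**
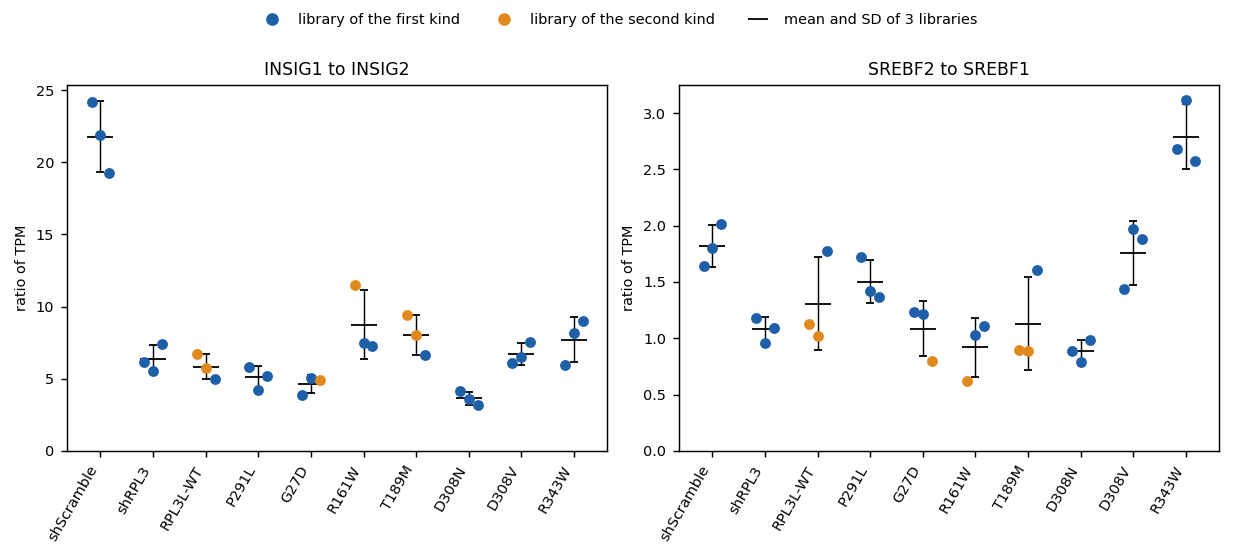
Ratio of TPM within each library (vertical axes, from 0) for INSIG1 to INSIG2 and SREBF2 to SREBF1, with points coloured by kind and the mean and SD of 3 libraries in black. The 3 shScramble libraries stand above all others at left, and the 3 R343W libraries at right.

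Genes most like a member over the 24 libraries of the first kind, by Pearson r of log2(TPM + 1), included enzymes of cholesterol synthesis for INSIG1 and STARD4, and are named with no p, since the libraries share groups. They were HMGCS1 and FDFT1 for INSIG1 (r = 0.981 and 0.980) and MSMO1 for STARD4 (r = 0.981). CYBRD1 (r = 0.980) was also among the genes for INSIG1, and VCP (r = 0.983) among those for SREBF2. Among the genes most like SREBF1 were EVL (r = 0.953) and GLT8D1 (r = 0.950), and to INSIG2 ADIPOR2 (r = 0.926), BLVRA (r = 0.925) and IDH1 (r = 0.921). THRA, TAPBP and TNFRSF1A followed SCAP (r = 0.893 to 0.907), PDE6D, EFEMP1 and NCKIPSD followed MYLIP (r = 0.865 to 0.892), and GATAD1, ERFE and ZCCHC3 followed ABCA1 (r = 0.816 to 0.864). Among the members, SREBF2 correlated with INSIG1 at r = 0.926 and with ABCA1 at -0.01.

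Most of the cholesterol and fatty acid synthesis genes outside the members fell in shRPL3 against shScramble. In this comparison 2597 of all 14426 genes fell and 2487 rose pooled, and 3539 fell and 3520 rose within kinds, with a median of -0.01. Of 20 cholesterol synthesis enzymes, 19 fell and 0 rose pooled and within kinds, with a list median of -1.64. HMGCS1, the first committed step toward mevalonate, went from 465 ± 11.0 to 90.0 ± 4.06 TPM (-2.36, adjusted p = 2.98e-16). MVD (-2.28), DHCR7 (-2.19) and MSMO1 (-2.18) fell by about as much. Of 13 fatty acid genes driven by SREBP1, 11 fell and 1 rose pooled and within kinds, with a median of -1.28. SCD, which desaturates stearate, went from 707 ± 12.9 to 125 ± 4.25 TPM (-2.49, adjusted p = 2.98e-16), and FADS2, ACSS2 and PNPLA3 fell by -2.19, -2.03 and -2.01.

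The other 4 lists had medians nearer to 0, beside 18.0% of all genes lower pooled and 24.5% within kinds. Of 8 lipoprotein uptake genes tested, of 10 listed, 5 fell pooled and within kinds (median -0.48), led by the receptor LRP8 (-1.76, adjusted p = 2.64e-10) and the lysosomal lipase LIPA (-0.79), with DAB2 (-0.57) and LRPAP1 (-0.52). Of 17 genes of sterol transport and storage, 7 fell and 1 rose pooled, and 9 fell and 1 rose within kinds (median -0.32). Those that fell pooled included TMEM97 (-1.07), NPC1 (-0.88) and NPC2 (-0.76), which pass cholesterol out of lysosomes, and OSBPL5 (-0.69). Of 16 genes of SREBP processing and sterol-dependent turnover, 7 fell and 2 rose pooled, and 9 fell and 2 rose within kinds (median -0.245). MBTPS1, the protease that makes the first SREBP cut (-0.61), and SEC23A (-0.51), a coat protein of vesicles that leave the endoplasmic reticulum, were among those that fell. Of 10 LXR receptors, partners and targets tested, of 12 listed, 3 fell and 0 rose (median -0.07): LPCAT3 (-0.56), SMPDL3A (-0.50) and PLTP (-0.28). Within kinds 1 of these 10 rose and 4 fell.

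In the libraries labelled R161W, 15 of the 20 cholesterol enzymes were higher than in shRPL3 pooled and 19 within kinds (medians 0.54 and 0.60, all genes -0.08 and -0.04), where 8.36% and 14.3% of all genes were. HMGCS1 was at 141 ± 12.4 TPM, higher by 0.64 pooled and 0.70 within kinds (adjusted p = 2.81e-06 and 3.31e-09). Against shScramble, 19 of 20 were lower pooled and within kinds (medians -1.09 and -1.03), where 16.3% and 20.4% of all genes were. In D308N, 18 of 20 were lower than in shRPL3 pooled and within kinds (median -0.90), where 12.4% and 22.2% of all genes were, and HMGCS1 was at 30.4 ± 1.80 TPM (-1.54, adjusted p = 4.82e-12). In D308V 17 were lower pooled and 19 within kinds (median -0.74), where 11.1% and 22.4% of all genes were. In G27D 18 were lower pooled and within kinds (medians -0.68 and -0.60), where 15.0% and 20.5% of all genes were. In R343W 10 were lower pooled and 16 within kinds (median -0.38), where 12.4% and 22.8% of all genes were, and HMGCS1 was at 51.9 ± 1.96 TPM (-0.78). In RPL3L-WT 11 of the 20 were lower than in shRPL3 and 0 higher pooled (median -0.33), where 30.2% of all genes were lower. Within kinds 6 were lower and 1 was higher (median -0.14), where 20.1% of all genes were lower. The counts for P291L and T189M are not given here. All these comparisons other than that with shScramble share the shRPL3 libraries.

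**Figure D5:**
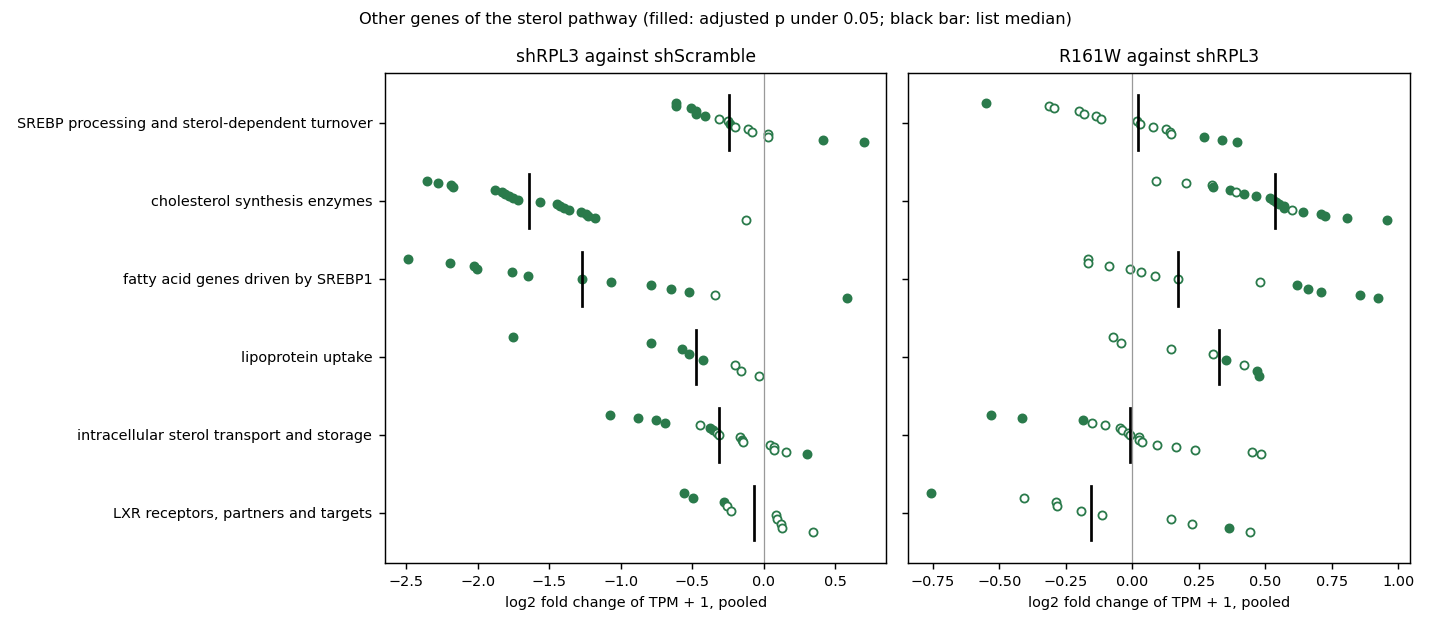
Pooled log2 fold changes of TPM + 1 (horizontal axes) for the tested genes of 6 lists, members left out, in shRPL3 against shScramble and in R161W against shRPL3; filled points have an adjusted p under 0.05 and black bars are list medians. Cholesterol synthesis enzymes have a median of -1.64 in the first and 0.54 in the second, and the LXR list lies near 0 in the first.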

How the data were processed

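PolyA RNA was measured in 30 libraries of 10 groups. Libraries were made with TruSeq chemistry and a KAPA HiFi final PCR, per the labels' protocols. Kallisto, bedtools, Bowtie and bcl2fastq 2.19 are named, without their roles, in the submitters' processing notes. For the build and annotation behind the table, the sources used here give nothing. Values are TPM per gene as the authors deposited them, and each library sums to 1000000. Of 60612 entries, 6 were construct sequences and were left out of the tests. All value columns were matched to labelled libraries (0 unmatched). TPM keep no depth, so no counting interval is given. The 12 nuclear libraries were not used.

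From the deposited TPM, log2(TPM + 1) was fitted with limma (two-sided, empirical Bayes with a trend and robust settings) in 1 model of 10 groups, with Benjamini-Hochberg adjustment per comparison over 14426 genes of mean TPM at least 1. The fit was tested on simulated data. Library kind came from the first principal component of pseudogene levels (widest gap 14.0, next 2.0). Second-kind libraries had EBFP2 to rtTA3 ratios of 1.431 to 1.574, and first-kind construct libraries of 0.9705 to 1.052. Members and lists were chosen with earlier results of these data known. Named genes were the 8 members, RPL3 and RPL3L, up to 4 genes a list past the threshold in shRPL3 against shScramble with at least 5 TPM, ranked by size, and the 3 genes most like each member. A few genes that this rule picks are not reported here. Alternatives covered the pseudocount, the filter, median-ratio scaling, the kind, the replicate block, the groups in the fit and each library left out. Promoters and microRNAs are from RefSeq (GRCh38.p14, all 8 members matched, 35116 promoters), and gene positions from GENCODE 29 on GRCh38, which may differ from the authors' annotation. The near match to the LXR repeat was searched after the exact repeat was found in no member. The fit without a filter with the kind term, and the alternatives for ABCA1, were chosen after seeing the data. Versions were limma 3.58.1 (R 4.3.3) and pandas 2.3.3, numpy 2.4.6 and matplotlib 3.10.9 (Python 3.11.15).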

Additional observations from a re-analysis of the deposited data

How the results depend on the processing

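Of 85 member calls followed (past the threshold pooled or within kinds), all 85 kept direction and side of the threshold with a pseudocount of 0.1 and with the replicate block. Same-numbered libraries did not deviate together (correlations from -0.56 to 0.505, median -0.00311, and 8 of 30 libraries correlated best with their own number), so the numbers were not taken as pairs. With the replicate block, 4 members passed in shRPL3 against shScramble and 4 in RPL3L-WT against shRPL3, as without it, and it changed no other call. Counts with no filter include ABCA1. Counts of members past the threshold moved by more than 1.5 times as follows, and the cause was not tested. RPL3L-WT against shRPL3 went from 4 to 2 with median-ratio scaling and with only those groups, and lay at 2 to 4 with 1 library left out. P291L against RPL3L-WT went from 1 to 0 with no filter, a mean of at least 5 TPM, the kind term with or without the filter, the second kind left out and only those groups (0 to 2 with 1 library left out). G27D against RPL3L-WT went from 2 to 1 at 5 TPM, to 0 with only those groups and to 4 with the kind term, with or without the filter, and without the second kind. R161W against RPL3L-WT went from 5 to 0 with only those groups. T189M against RPL3L-WT went from 1 to 2 with median-ratio scaling, to 5 with the kind term, with or without the filter, and to 0 without the second kind or with only those groups (0 to 3 with 1 library left out). R343W against RPL3L-WT went from 2 to 1 without the second kind, with the kind term and no filter, and with only those groups (1 to 3 with 1 library left out; 1 without RPL3L-WT 2). G27D against shRPL3 went from 5 to 2 with no filter or median-ratio scaling and to 1 with only those groups (2 to 4 with 1 library left out). T189M against shRPL3 went from 2 to 1 with no filter, median-ratio scaling or the second kind left out, and in each the original calls of INSIG1 and MYLIP were lost: the 1 gene past the threshold was ABCA1 (-0.61) with no filter, STARD4, higher (0.33, adjusted p = 0.0104), with median-ratio scaling and SREBF2, higher (0.51, adjusted p = 0.00118), without the second kind. It went to 0 with only those groups (0 to 3 with 1 library left out). With the kind term it was 2, but these were SREBF2 and STARD4, higher. R343W against shRPL3 went from 2 to 1 at 5 TPM, and to 5 with the kind term, with or without the filter, and without the second kind. D308N against D308V went from 3 to 5 under those same kind settings. The direction turned in 5 pooled values, none past the threshold: INSIG2 in D308N against RPL3L-WT (0.21 without RPL3L-WT 3 and 0.05 without D308N 1; range with 1 library left out -0.16 to 0.21), INSIG2 in D308V against RPL3L-WT (0.15 without RPL3L-WT 3; range -0.22 to 0.15), STARD4 in R343W against RPL3L-WT (0.03 without RPL3L-WT 3; range -0.23 to 0.03) and SREBF2 in T189M against shRPL3 (-0.11 without T189M 3; range -0.11 to 0.21).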
